A study of Mus musculus with 8 samples.

Results

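The insulin-like growth factor (IGF) ligands, receptors and binding proteins were examined in rib chondrocytes of mice with and without *Mir140*. The members were 10 genes taken by symbol, *Igf1*, *Igf2*, *Igf1r*, *Igf2r* and *Igfbp2* to *Igfbp7*, out of the 52325 gene identifiers listed for each library. All 10 passed the filter on low values, at least 0.5 TPM (the length-scaled share of the library's transcripts) in at least 4 of the 8 libraries. The libraries came from 4 wild-type and 4 *Mir140*-null mice, all 7 d old and of C57BL/6J background. The deletion was made by CRISPR/Cas9 in zygotes of mixed C57BL/6 and CBA/ca background, carriers were backcrossed to C57BL/6J, and the wild-type and null lines both descend from crosses of heterozygotes. The null mice lack the miRNA gene in every tissue, not only in cartilage, and the chondrocytes were freed from the ribs with collagenase. Nothing in the labels says that animals were pooled, or which of them were littermates.

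IGF1 and IGF2 are secreted growth factors that act through the tyrosine kinase receptor IGF1R, while IGF2R binds IGF2 and carries it to the lysosome. The IGF binding proteins hold the ligands in the extracellular space and can limit or prolong their action, and proteases release the ligands again. In the growth plate this system drives chondrocyte proliferation and enlargement, in part downstream from growth hormone. miR-140, which lies in an intron of *Wwp2*, is the best-known miRNA of cartilage, and *Igfbp5* is among its published targets.

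The miRNA is made in a 5p and a 3p form, and the 3p form occurs with either of the seeds below (bases 2 to 8, in capitals), which are shown because they set the letters that were looked for in the members' 3′UTRs. The first is the mature sequence in RefSeq, at chr8:107551288-107551308 on the plus strand of mm10, and the second is that sequence without its first base. The sequence of miR-140-5p was not used here.
miR-140-3p.2: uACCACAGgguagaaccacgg
miR-140-3p.1: aCCACAGGguagaaccacgg

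Complements of the seeds, CTGTGGT (miR-140-3p.2) and CCTGTGG (miR-140-3p.1), were searched on the sense strand in the longest GENCODE M21 3′UTR of each gene. The words share 6 letters, so that CCTGTGGT counts for both. *Igf1r* and *Igfbp4* held a match and the other 8 members held none. *Igf1r* had 1 match to miR-140-3p.1, followed by an A, at position 6214 of a 3′UTR of 7267 bases. *Igfbp4* had 2 matches to miR-140-3p.1, at positions 890 and 1257 of 2813, and 1 to miR-140-3p.2 at position 1258, which overlaps the second. The sites are shown with 11 bases on either side and the matched letters in capitals. They lie on the plus strand of mm10, at chr7:68232615-68232621 in *Igf1r*, and at chr11:99052469-99052475, chr11:99052836-99052842 and chr11:99052837-99052843 in *Igfbp4*.
*Igf1r*, miR-140-3p.1: actcactgttcCCTGTGGagtgtagcagc
*Igfbp4*, miR-140-3p.1: gttgcccaccaCCTGTGGctttgcctccg
*Igfbp4*, miR-140-3p.1: tggagtggggtCCTGTGGttttggaggcc
*Igfbp4*, miR-140-3p.2: ggagtggggtcCTGTGGTtttggaggcca

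Such matches are common in long 3′UTRs. The miR-140-3p.1 word stood in 17.0% and the miR-140-3p.2 word in 16.1% of all 21007 3′UTRs searched. Among the 375 3′UTRs of 0.8 to 1.2 times the length of that of *Igf1r*, 50.4% held the miR-140-3p.1 word. Of the 2402 3′UTRs about as long as that of *Igfbp4*, 31.4% held the former word and 30.6% the latter. *Igfbp5*, with a 3′UTR of 4445 bases, held neither word. In the TargetScanHuman lists supplied with the study, *Igf1r* and *Igfbp5* are predicted targets of miR-140-5p, and none of the 10 members is a predicted target of either miR-140-3p seed.

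*Mir140* itself had no TPM in 7 libraries, the 4 wild-type ones among them, whereas the library labelled *Mir140*-null replicate 2 had 8.86 TPM of it, so that these values are no check of the labels. Chondrocyte markers were abundant in every library. *Col2a1* and 9 others summed to 57567 to 73279 TPM in the wild-type and 41674 to 57541 TPM in the null libraries. The lowest wild-type sum was barely above the highest null sum. *Col2a1* makes up most of that sum, and the 10 markers did not all go the same way. *Chad*, *Hapln1*, *Col9a1* and *Col11a1* were called lower (log2 fold change -1.21 to -0.43), *Acan* was called higher (0.88, limma adjusted p = 0.0107), and the other 5, *Col2a1* (-0.49, limma adjusted p = 0.0695) among them, were not called. The 8 fibroblast and perichondrium markers, led by *Col1a1*, *Col1a2* and *Col3a1*, summed to 3090 to 5940 TPM in the wild-type libraries with like sums of 5289 and 3838 TPM for *Mir140*-null replicates 3 and 4, whereas *Mir140*-null replicates 1 and 2 had sums of 558 and 710 TPM. Those libraries also listed the fewest genes at 0.5 TPM or more, 15800 and 16056 against 16991 to 17950 in the other 6. Between 4.06% and 6.98% of the wild-type TPM and between 8.41% and 10.1% of the null TPM were of mitochondrially encoded genes. The summed markers of hypertrophic chondrocytes (48.2 to 188 TPM in wild-type, 69.2 to 89.2 TPM in null libraries), osteoblasts (2.91 to 11.8, 2.22 to 9.56), macrophages and leukocytes (21.7 to 39.6, 16.8 to 30.8) and adipocytes (0.215 to 0.729, 0.0932 to 0.372) overlapped between genotypes, and those of skeletal muscle (61.1 to 96.3, 33.5 to 57.3) did not. In RNA from a mixture of cells, fewer cells of a type and less RNA per cell cannot be told apart.

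Levels were compared between genotypes with limma on log2(TPM + 1), two-sided, with Benjamini-Hochberg adjustment over the 17177 genes tested, and a gene was called at an adjusted p under 0.05. A log2 fold change is the *Mir140*-null minus the wild-type mean on that scale, which understates the change of genes at a few TPM. Of all tested genes, 16.9% were called, 10.5% higher and 6.4% lower. Of the 10 members, 1 was higher, *Igfbp2*, and none was lower. Without adjustment, *Igfbp2* was also the only member past the threshold in limma, and *Igf2r* came next. The members' median log2 fold change was -0.25, against -0.01 for all tested genes. That sign rests on *Mir140*-null replicates 1 and 2. Without them, every negative log2 fold change among the members except that of *Igf2r* turned positive, and the median of all tested genes was 0.07. Nonoverlap of the genotypes held for the same 1 member and for 25.9% of all tested genes.

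**Figure D1:**
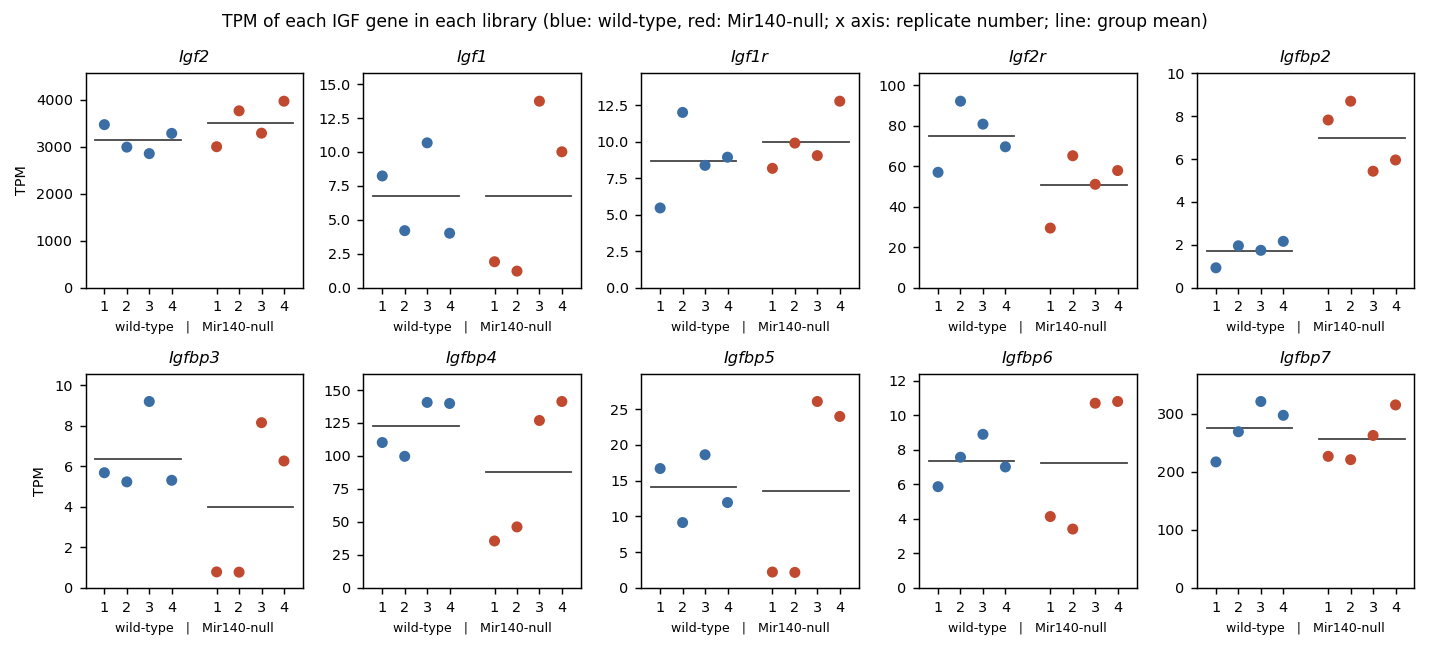
TPM (vertical axes, each starting at 0) of the 10 members in each library, with wild-type replicates 1 to 4 in blue, *Mir140*-null replicates 1 to 4 in red, and a line at each group mean. Only for *Igfbp2* do all 4 null points lie above all 4 wild-type points, while *Igf1*, *Igfbp3*, *Igfbp4*, *Igfbp5* and *Igfbp6* are lowest in null replicates 1 and 2.

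Among the ligands, *Igf2* dominated. It was at 3469, 2990, 2852 and 3283 TPM in wild-type replicates 1 to 4 while the *Mir140*-null replicates 1 to 4 held 2999, 3763, 3287 and 3968 TPM. The genotypes overlapped, with 2 null libraries above every wild-type one. On the log2 scale the null mean was higher by 0.15 (SE 0.12, limma adjusted p = 0.406). *Igf2* made up 82.6% to 89.0% of the TPM of the 10 members in wild-type libraries and 86.5% to 91.3% in null libraries, and about 0.315% of all TPM in wild-type libraries (SD 0.0279, n = 4).

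*Igf1*, the ligand whose production growth hormone drives, was far lower. Its level was 8.23, 4.20, 10.7 and 4.01 TPM in the wild-type libraries and 1.91, 1.21, 13.7 and 10.01 TPM in the null libraries. Null replicates 1 and 2 were thus lower than any other library and null replicate 3 was the highest of all. The log2 fold change of -0.36 had an SE of 0.65 (limma adjusted p = 0.731). There was 267 to 819 times as much *Igf2* as *Igf1* in wild-type libraries, 1574 and 3099 times as much in null replicates 1 and 2, and 239 and 396.5 times as much in null replicates 3 and 4.

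*Igf1r*, the signaling receptor and a predicted miR-140-5p target, was at 5.46, 12.0, 8.39 and 8.95 TPM in wild-type and at 8.18, 9.92, 9.05 and 12.8 TPM in null libraries. All but 1 of the null values lay within the wild-type range. The fitted log2 difference was 0.21 (SE 0.23, limma adjusted p = 0.558).

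*Igf2r*, the clearance receptor for IGF2, was at 56.9, 92.0, 80.7 and 69.5 TPM in wild-type and at 29.4, 65.1, 51.0 and 57.8 TPM in null libraries. Null replicates 1 and 3 lay below every wild-type library, and replicates 2 and 4 within the wild-type range. The log2 fold change was -0.58 (SE 0.26) and was not called (limma adjusted p = 0.15; exact permutation p = 0.0857 over the 70 assignments of the libraries). It kept its sign in every alternative tried, between -0.74 and -0.35, with an adjusted p from limma of 0.0642 or more. *Igf2r* TPM were 7.66 to 10.4 times those of *Igf1r* in the wild-type and 3.59 to 6.57 times in the null libraries, without overlap, a ratio formed after the values were seen and not tested.

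*Igfbp2*, a binding protein that prefers IGF2, was the member that rose. It was at 0.924, 1.95, 1.74 and 2.16 TPM in the wild-type libraries, a mean of 1.69 (SD 0.541, n = 4), and at 7.83, 8.70, 5.43 and 5.96 TPM in the null libraries, a mean of 6.98 (SD 1.54, n = 4). Every null library was above every wild-type library, and the null mean was 4.12 times the wild-type mean. The log2 fold change was 1.57 (SE 0.21, limma adjusted p = 0.0063), and the exact permutation p of 0.0286 is the smallest that 4 libraries against 4 can give. *Igfbp2* was called in each of the 19 alternatives that tested it, with a log2 fold change between 1.32 and 2.02 and an adjusted p from limma of at most 0.0413. The filter at a mean of 5 TPM left it untested. *Igfbp2* was also higher in null replicates 3 and 4, whose fibroblast marker sums lay within the wild-type range. Without null replicates 1 and 2 its log2 fold change was 1.34 (limma adjusted p = 0.0413, when 3.76% of all tested genes were called).

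*Igfbp5* lies next to *Igfbp2* on chromosome 1 and is read in the opposite direction, with 5457 bases between the gene bodies (72824503 to 72852474 for *Igfbp2* and 72857932 to 72874884 for *Igfbp5*, mm10). *Igfbp5* was at 16.7, 9.13, 18.6 and 11.9 TPM in the wild-type libraries, against 2.22, 2.16, 26.1 and 23.96 TPM in the null libraries. Null replicates 1 and 2 were below every wild-type library and null replicates 3 and 4 above every one, so that the group means, 14.1 TPM (SD 4.34, n = 4) in wild-type and 13.6 TPM (SD 13.2, n = 4) in null libraries, were close while the spread was not. The log2 fold change of this published target was -0.68 (SE 0.77, limma adjusted p = 0.568). Without null replicates 1 and 2 it was 0.83 (adjusted p = 0.137), the opposite sign, and with the summed fibroblast markers as a second term of the limma fit it was 0.71 (SE 0.17, adjusted p = 0.0583).

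*Igfbp3*, the main carrier of IGFs in serum, was at 5.68, 5.23, 9.19 and 5.31 TPM in wild-type and at 0.788, 0.776, 8.15 and 6.26 TPM in null libraries. Null replicates 1 and 2 again stood far below all other libraries, and null replicates 3 and 4 lay within the wild-type range. With all libraries the log2 fold change was -0.92 (SE 0.57, limma adjusted p = 0.295), and it was 0.18 without those replicates. *Igfbp1*, its neighbor 3539 bases away on chromosome 11, was at 0.0804 TPM or less in every library and was not tested.

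*Igfbp4*, which inhibits IGF action and is cut by the protease PAPPA, was the second most abundant binding protein. It was at 110.2, 99.7, 141 and 139.8 TPM in wild-type and at 35.6, 46.2, 127 and 141 TPM in null libraries. Null replicates 1 and 2 lay below every other library. Its log2 fold change was -0.71 (SE 0.44, limma adjusted p = 0.297), and 0.14 without them. With 1 factor of unwanted variation taken from the residuals, *Igfbp4* and *Igfbp3* were called lower, at limma adjusted p of 0.0111 and 0.00834. In that fit 26.1% of all tested genes were called, and it was the only alternative that called either. The log2 fold changes were unchanged, while the SE fell to 0.13 and 0.16. The factor came from the residuals of these same data, which by itself lowers the SE.

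*Igfbp6*, with a strong preference for IGF2, was at 5.86, 7.56, 8.89 and 7.00 TPM in wild-type and at 4.13, 3.41, 10.7 and 10.8 TPM in null libraries. As for *Igfbp5*, null replicates 1 and 2 were below and null replicates 3 and 4 above all wild-type libraries. A log2 fold change of -0.14 was fitted (SE 0.35, limma adjusted p = 0.803).

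*Igfbp7*, a low-affinity member of the family, was the most abundant binding protein and the steadiest of them. It was at 217, 269, 321 and 297 TPM in wild-type and at 227, 221, 263 and 315 TPM in null libraries, all 4 of the latter within the wild-type range. Its log2 fold change was -0.11 (SE 0.16, limma adjusted p = 0.673). *Igfbp7* made up 60.9% to 68.5% of the binding protein TPM in wild-type libraries and in null replicates 3 and 4 59.7% and 62.6%, but 81.8% and 78.3% in null replicates 1 and 2, where the share of *Igfbp4* was 12.8% and 16.4% against 25.4% to 30.9% in the other 6 libraries. *Igfbp2* remained a minor binding protein, at 0.259% to 0.497% of these TPM in wild-type and 1.18% to 3.08% in null libraries.

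In order of mean TPM in the wild-type libraries, *Igf2* (3149) was followed by *Igfbp7* (276), *Igfbp4* (123) and *Igf2r* (74.8), with no overlap between neighbors in that order. *Igfbp5* (14.1), *Igf1r* (8.70), *Igfbp6* (7.33), *Igf1* (6.78) and *Igfbp3* (6.35) each overlapped the next, and *Igfbp2* (1.69) lay below all of them. In the null libraries the first 7 places were the same and *Igfbp2* (6.98) had moved to place 8, between *Igfbp6* (7.25) and *Igf1* (6.72) and overlapping both, while *Igfbp3* (3.99) came last.

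The split among the null libraries recurred across members. *Igf1*, *Igfbp3*, *Igfbp4*, *Igfbp5* and *Igfbp6*, 5 of the 10, were lower in null replicates 1 and 2 than in all other 6 libraries, as were 3622 of the 17177 tested genes (21.1%). The same 2 libraries held the least fibroblast marker RNA, all 8 markers being lower there than in any other library, with *Col1a1* at 47.9 and 50.1 TPM against 793 to 1544 TPM elsewhere. The 4 endothelial markers summed to 3.37 and 4.73 TPM there against 5.36 to 25.9 TPM elsewhere, and the 3 erythroid markers to 303 and 163 TPM against 393 to 1125 TPM. The osteoblast sum (2.49 and 2.22 TPM against 2.91 to 11.8 TPM) and the macrophage and leukocyte sum (17.3 and 16.8 TPM against 21.7 to 39.6 TPM) were likewise lowest in these 2 libraries. Within the other 6 libraries, where the fibroblast sum varied from 3090 to 5940 TPM, Pearson's r between the log2 values of the sum and of the member was 0.81 for *Igf1*, 0.76 for *Igfbp3* and 0.65 for *Igfbp5*, but 0.19 for *Igfbp4* and 0.09 for *Igfbp6*. Among the members outside that group it was -0.66 for *Igf1r*, -0.42 for *Igf2r*, -0.24 for *Igfbp7*, -0.18 for *Igfbp2* and -0.13 for *Igf2*, so that an r as far from 0 as that of *Igfbp5* also arose without the split. These r describe 6 libraries of 2 genotypes that share their scaling. Beyond the fits given here, the part of other cells in the members' levels was not tested.

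**Figure D2:**
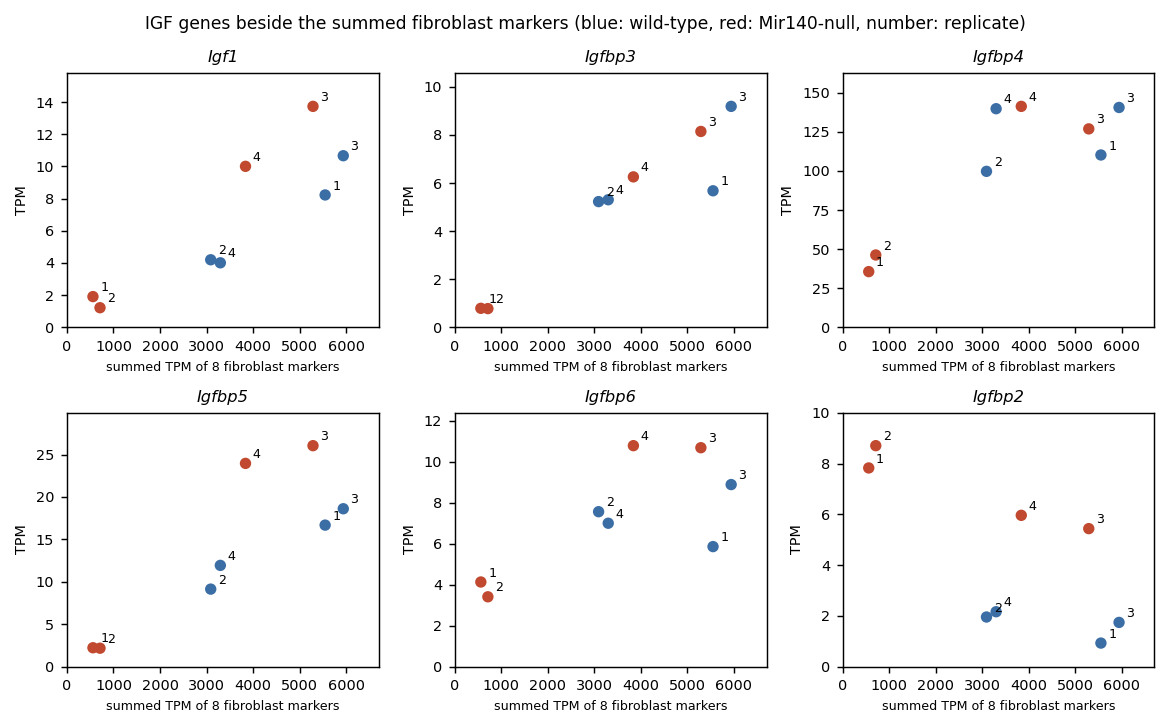
TPM of 6 members (vertical axes) against the summed TPM of the 8 fibroblast markers (horizontal axes) in each library, wild-type in blue and *Mir140*-null in red, with the replicate number beside each point. Null replicates 1 and 2 sit at the left, at 558 and 710 TPM, low in the first 5 panels and high for *Igfbp2*, and at like marker sums the 4 wild-type libraries lie below null replicates 3 and 4 for *Igfbp2*.

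The sign of 6 members depended on these libraries or markers. Without null replicates 1 and 2, *Igf1*, *Igfbp3*, *Igfbp4*, *Igfbp5*, *Igfbp6* and *Igfbp7* had positive log2 fold changes from 0.07 to 0.83, and with the fibroblast sum as a second term from 0.03 to 0.77. None of the 6 was called in either fit. *Igf2*, *Igf1r*, *Igf2r* and *Igfbp2* had the same sign in all 3 fits. Both fits were added after the data had been seen.

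**Figure D3:**
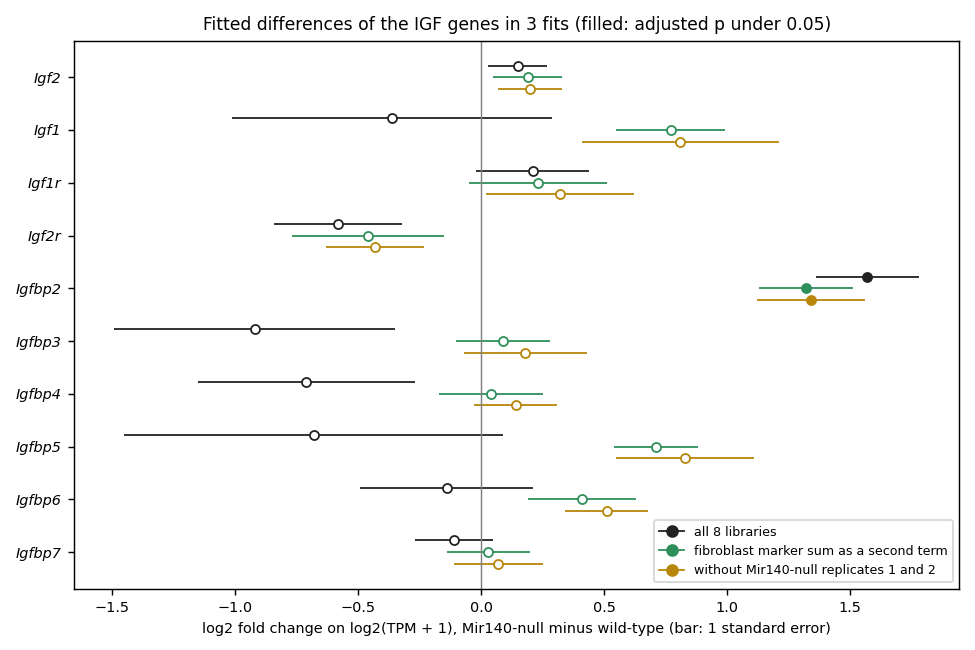
Log2 fold change of each member, *Mir140*-null minus wild-type, on the log2(TPM + 1) scale (horizontal axis, bars of 1 SE) from all 8 libraries in black, with the fibroblast marker sum as a second term in green, and without null replicates 1 and 2 in yellow. Filled points are those at an adjusted p under 0.05, which are the 3 points of *Igfbp2*, at 1.57, 1.32 and 1.34.

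The genes whose profile over the 8 libraries came closest to that of *Igf1*, by root mean square distance of centered log2 values among 8009 genes, were *Cdh11* (0.24), *Cacna1g* (0.25) and *Ssc5d* (0.26). For *Igfbp5* they were *Kera* (0.27), *Lgals1* (0.28) and *Thy1* (0.31). For *Igf2* they were *Gpatch2l* (0.06), *Clptm1* (0.07) and *Sowahc* (0.07).

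The rest of the pathway was followed in 7 lists set out by role, with earlier results of these data known. Of the 78 listed genes, 70 could be tested. Of these, 17 were higher and 3 lower, against backgrounds of 10.5% and 6.4% of all tested genes, and their median log2 fold change was 0.20. The genotypes did not overlap for 31 of the 70 tested genes, against 25.9% of all tested genes. Without null replicates 1 and 2, 4 of the 17 were still called, *Cish*, *Jak2*, *Ctsd* and *Igf2bp1*, and none of the lower genes, while 3.76% of all tested genes were called. With the fibroblast sum as a second term, 8 were higher and 1 lower, while 6.56% of all tested genes were called.

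**Figure D4:**
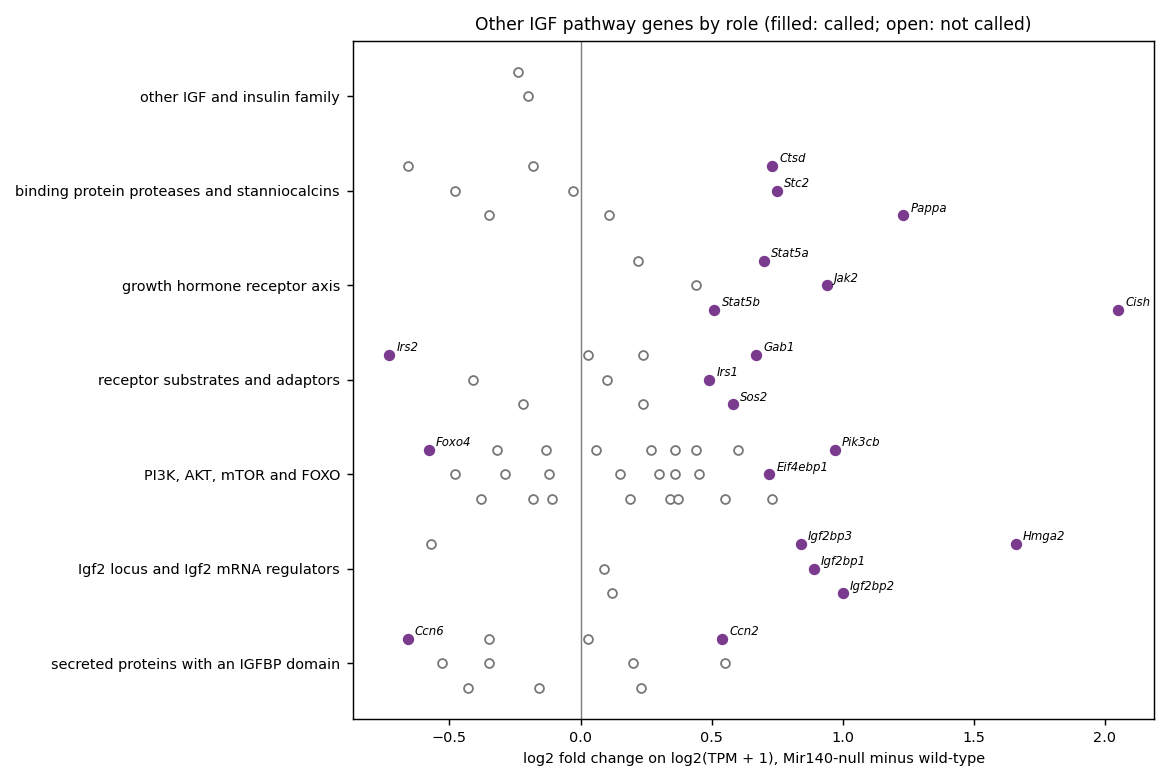
Log2 fold change, *Mir140*-null minus wild-type, on the log2(TPM + 1) scale (horizontal axis) of the 70 tested genes of the 7 pathway lists (rows). The 20 called genes are filled and named, the others open, and height within a row has no meaning. All 4 called genes of the growth hormone receptor axis and all 4 called regulators of *Igf2* lie to the right of 0. Over all tested genes, 10.5% were called higher and 6.4% lower.

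Growth hormone signals through its receptor GHR, the kinase JAK2 and the transcription factors STAT5A and STAT5B, which drive *Igf1* as well as the feedback inhibitors *Cish* and *Socs2*. Of these 6 genes, 4 were higher and none lower, against 10.5% and 6.4% of all tested genes. The median log2 fold change of the 6 was 0.60. *Cish* rose most, from 4.50, 2.96, 2.04 and 2.60 TPM in wild-type to 20.3, 22.4, 12.7 and 9.27 TPM in null libraries (log2 fold change 2.05, SE 0.30, limma adjusted p = 0.00789). Its lowest null library was above its highest wild-type library, with null replicates 1 and 2 highest. *Socs2* was at 12.1 to 19.4 TPM in wild-type and 13.6 to 24.7 TPM in null libraries, with overlap. It was not called (log2 fold change 0.44, limma adjusted p = 0.197).

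*Jak2* was at 22.7, 27.2, 19.8 and 21.97 TPM in wild-type and at 51.8, 46.2, 40.5 and 40.4 TPM in null libraries, with no overlap (log2 fold change 0.94, SE 0.13, limma adjusted p = 0.00729). *Cish* and *Jak2* were called in all 20 alternatives. *Stat5a* (0.70, limma adjusted p = 0.0188) and *Stat5b* (0.51, adjusted p = 0.0313) also rose, though *Stat5b* was called in 8 of the 20 alternatives and in none of those that left out 1 library. *Ghr* was at 20.4 to 23.6 TPM in wild-type and 23.8 to 29.3 TPM in null libraries, a log2 fold change of 0.22 that was not called (limma adjusted p = 0.192).

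Of 7 tested genes at the *Igf2* locus or listed as regulators of *Igf2* expression or mRNA, 4 were higher and none lower. The shares over all tested genes were 10.5% and 6.4%. The median log2 fold change of the 7 was 0.84. *Hmga2*, a chromatin protein known to favor *Igf2* and *Igf2bp2* expression, was at 6.95, 15.8, 13.0 and 15.1 TPM in wild-type and at 46.8, 41.8, 35.7 and 39.4 TPM in null libraries (log2 fold change 1.66, SE 0.24, limma adjusted p = 0.0075). The lowest null library, at 35.7 TPM, was well above the highest wild-type library, at 15.8 TPM. *Hmga2* was called in 19 of 20 alternatives, the exception being that without null replicates 1 and 2 (1.55, limma adjusted p = 0.0568).

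Transcripts that encode the proteins that bind *Igf2* mRNA rose as well. *Igf2bp2* went from 12.9, 26.6, 20.9 and 18.96 TPM in wild-type to 43.6, 43.2, 36.0 and 35.6 TPM in null libraries (log2 fold change 1.0, SE 0.20, limma adjusted p = 0.0181). *Igf2bp1* (0.89, limma adjusted p = 0.00926) and *Igf2bp3* (0.84, adjusted p = 0.0186) were low, with null means of 2.52 TPM (SD 0.522, n = 4) and 4.51 TPM (SD 0.846, n = 4), each above all wild-type libraries in 4 of 4 null libraries. *H19*, the imprinted RNA gene 72622 bases from *Igf2* on chromosome 7, was at 4057, 3508, 3491 and 3872 TPM in wild-type and at 2390, 4077, 5002 and 5493 TPM in null libraries, and was not called (log2 fold change 0.12, SE 0.24, limma adjusted p = 0.763). Its ratio to *Igf2* stayed at 1.17 to 1.22 in the wild-type libraries and was 0.797, 1.08, 1.52 and 1.38 in the null libraries, of which 2 lie below and 2 above the wild-type range.

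**Figure D5:**
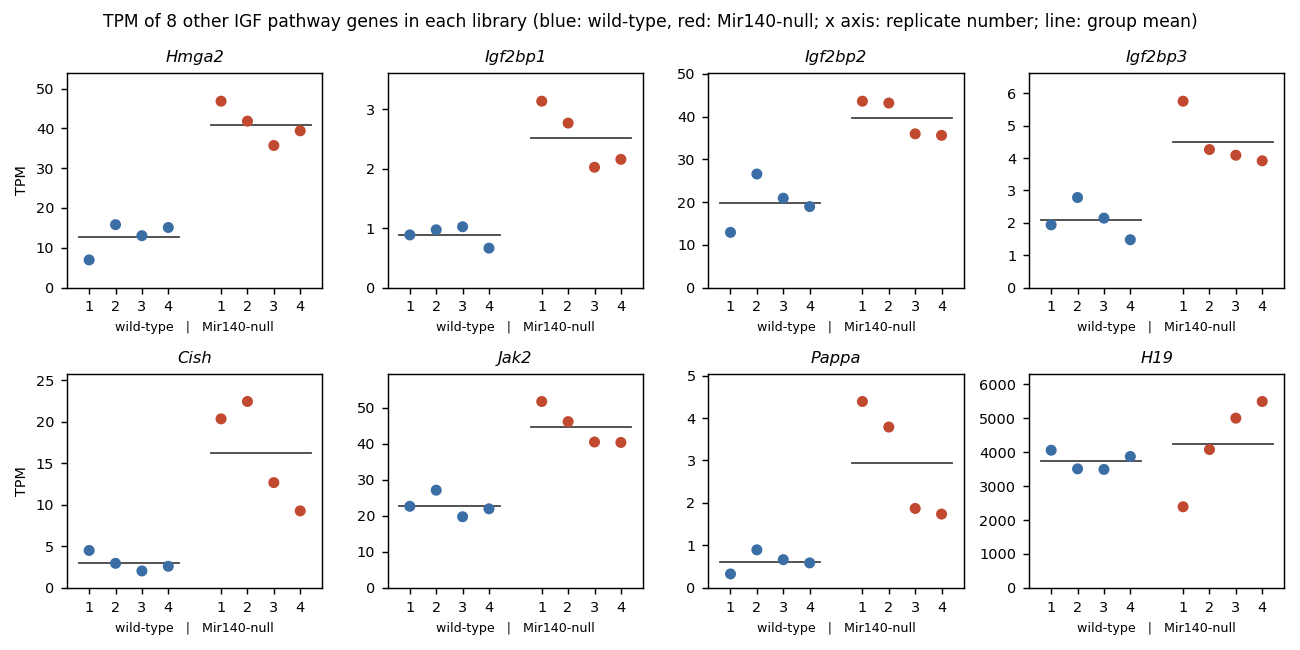
TPM (vertical axes, each starting at 0) of 8 other genes of the pathway in each library, with wild-type replicates 1 to 4 in blue, *Mir140*-null replicates 1 to 4 in red, and a line at each group mean. The genotypes do not overlap for *Hmga2*, *Igf2bp1*, *Igf2bp2*, *Igf2bp3*, *Cish*, *Jak2* and *Pappa*, and overlap for *H19*.

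Of the 9 tested proteases that cut binding proteins and stanniocalcins that restrain them, 3 were higher and none lower. The shares over all tested genes were 10.5% and 6.4%, and the list's median log2 fold change was -0.03. *Pappa*, which frees IGFs from IGFBP4 and IGFBP5, was at 0.328, 0.896, 0.665 and 0.588 TPM in wild-type and at 4.39, 3.79, 1.87 and 1.74 TPM in null libraries (log2 fold change 1.23, SE 0.25, limma adjusted p = 0.0178). The null libraries were all higher, but null replicates 1 and 2 were well above the others, and without these the call was lost (0.80, adjusted p = 0.0547). *Stc2*, an inhibitor of PAPPA and a predicted miR-140-5p target, rose from a mean of 6.86 TPM (SD 2.01, n = 4) to 12.1 TPM (SD 2.45, n = 4; log2 fold change 0.75, limma adjusted p = 0.0455), and was called in 6 of 20 alternatives. *Ctsd*, which encodes the lysosomal protease cathepsin D, rose from 102 TPM (SD 5.83, n = 4) to 169.9 TPM (SD 21.2, n = 4; 0.73, limma adjusted p = 0.00801) and was called in all 20. *Htra1* (-0.66, limma adjusted p = 0.102) was not called.

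Downstream from the receptor, 3 of 10 tested substrates and adaptors were higher and 1 lower, against 10.5% and 6.4% of all tested genes. The insulin receptor substrates went in opposite directions. *Irs2* was at 11.5, 13.3, 11.9 and 14.5 TPM in wild-type and at 4.46, 7.57, 9.04 and 9.09 TPM in null libraries (log2 fold change -0.73, SE 0.21, limma adjusted p = 0.0489), and *Irs1* rose from 6.30 TPM (SD 0.866, n = 4) to 9.21 TPM (SD 1.002, n = 4; 0.49, adjusted p = 0.0432). Their calls were lost in 12 and 13 of 20 alternatives. The adaptor genes *Gab1* (0.67, limma adjusted p = 0.0226) and *Sos2* (0.58, adjusted p = 0.0325) were higher, the first of them a predicted miR-140-3p.2 target. *Sos2* was called in 10 and *Gab1* in 15 of 20 alternatives.

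Of the 25 genes of the PI3K, AKT, mTOR and FOXO branch, 2 were higher and 1 lower, and 22 were not called. Over all tested genes 16.9% were called, 10.5% higher and 6.4% lower, a share of calls that this list did not exceed. *Pik3cb*, a catalytic subunit of PI3K and a predicted miR-140-3p.1 target, was at 0.934, 1.47, 1.23 and 1.19 TPM in wild-type and at 4.46, 3.75, 2.46 and 2.83 TPM in null libraries (log2 fold change 0.97, SE 0.17, limma adjusted p = 0.0123). *Eif4ebp1*, a repressor of translation that mTOR inactivates, rose (0.72, limma adjusted p = 0.0179), and the transcription factor gene *Foxo4* fell (-0.58, adjusted p = 0.0361). *Foxo4* was called in 9 of 20 alternatives.

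Of the 11 genes of other secreted proteins with an IGFBP domain, 1 was higher, 1 lower and 9 not called. Over all tested genes, 10.5% were higher and 6.4% lower. *Ccn2*, which encodes connective tissue growth factor, rose from 169.7 TPM (SD 20.7, n = 4) to 247 TPM (SD 13.9, n = 4). Its log2 fold change was 0.54 (limma adjusted p = 0.018). *Ccn6*, loss of which causes a childhood cartilage disorder in humans, fell from 13.0 TPM (SD 0.990, n = 4) to 7.87 TPM (SD 0.948, n = 4; -0.66, limma adjusted p = 0.0139). Of the 7 listed other members of the IGF and insulin family, *Insr* (-0.24, limma adjusted p = 0.497) and *Igfals* (-0.20, adjusted p = 0.253) were tested and neither was called. *Ctsd*, *Stat5a*, *Stat5b*, *Socs2*, *Irs1*, *Igf2bp1*, *Igf2bp3*, *Ghr*, *Htra1*, *H19*, *Insr*, *Igfals* and *Igfbp1* were named after their values had been seen.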

How the data were processed

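RNA from rib chondrocytes of 4 wild-type and 4 *Mir140*-null mice was sequenced from stranded poly(A) libraries, and the labels gave each library its genotype and replicate number. The authors used Salmon on the mm10 transcriptome, in a version not given in the sources used here, and deposited TPM per Ensembl gene, that is, abundances corrected for transcript length and set to the same sum in every library. The RUVSeq and DESeq2 steps of the paper are not part of these values. The labels give a minimum number of reads that every sample exceeded, but not each sample's own number, and TPM hold no counts, so counting errors were not computed. Each file had 52865 lines, and identifiers on several lines were counted once, which left 52325.

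Of the identifiers, 99.8% were found in GENCODE M21, the source of symbols, positions and 3′UTRs (99.98% of the latter began after a stop codon). In R 4.3.3, limma 3.58.1 was fitted to log2(TPM + 1) of every gene that reached 0.5 TPM in 4 or more of the 8 libraries, with a mean-variance trend, genotype as the only term, two-sided tests and Benjamini-Hochberg adjustment. The fit was also run on simulated data with noise independent between genes and libraries. Such data cannot show how the fit handles the split among the null libraries. The exact permutation test, sums and ratios used Python 3.11.15, NumPy 2.4.6, pandas 2.3.3 and SciPy 1.17.1, with matplotlib 3.10.9 for the plots. P-values measure the spread between these libraries. The labels do not say whether each came from a separate litter or culture.

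The members, pathway lists and marker lists were chosen with earlier results of these data known. All 10 members were named, and of each pathway list up to 2 called genes per direction with the largest change. For *Igf1*, *Igf2* and *Igfbp5*, the 3 protein-coding genes with the nearest profile were named, among those with a mean of at least 5 TPM.

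Values were recomputed without a filter or with a mean of at least 5 TPM, with 0.1 as pseudocount, after quantile or median-ratio normalization or rescaling without mitochondrially encoded genes, with a replicate block, 1 residual factor of unwanted variation or sample quality weights, with no mean-variance trend, and with each library left out in turn. Leaving out *Mir140*-null replicates 1 and 2 together and adding the log2 fibroblast marker sum as a second term were chosen after seeing the data.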

Additional observations from a re-analysis of the deposited data

Results flagged for a closer look

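In 60 groups of 4 libraries, 1 for each genotype of the 10 members and the 20 called pathway genes, 3 held a library far from the others, where chance alone sets apart about 1 in 20 groups. *Igfbp3* stood at 9.19 TPM in wild-type replicate 3, while the other wild-type libraries were at 5.23 to 5.68 TPM. *Stc2* stood at 15.7 TPM in *Mir140*-null replicate 1, against 10.6 to 11.3 TPM in the other null libraries. *Stat5a* stood at 6.97 TPM in wild-type replicate 3, against 9.70 to 10.2 TPM in the other wild-type libraries.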

How the results depend on the processing

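Of the 10 members, *Igf2*, *Igf1r*, *Igf2r* and *Igfbp2* kept their direction in every alternative that tested them, and so did all 20 called pathway genes. The directions that turned, as log2 fold changes, were *Igf1* (0.03) and *Igfbp6* (0.03) with sample quality weights, *Igfbp6* without *Mir140*-null replicate 1 (0.04), and *Igf1* (0.10) and *Igfbp6* (0.11) without *Mir140*-null replicate 2. Leaving out 1 library at a time moved *Igf1* from -0.81 to 0.10 and *Igfbp6* from -0.36 to 0.11. Without changing sign, it gave -1.21 to -0.17 for *Igfbp5*, -1.34 to -0.55 for *Igfbp3* and -1.02 to -0.36 for *Igfbp4*, each nearest to 0 without *Mir140*-null replicate 1 or 2 and farthest without 3 or 4, and -0.22 to -0.03 for *Igfbp7*, 0.09 to 0.22 for *Igf2*, -0.72 to -0.35 for *Igf2r* and 0.02 to 0.36 for *Igf1r*, whose lowest value was without wild-type replicate 1. Without both null libraries, the values were *Igf1* 0.81, *Igfbp3* 0.18, *Igfbp4* 0.14, *Igfbp5* 0.83, *Igfbp6* 0.51 and *Igfbp7* 0.07, and with the fibroblast sum as a second term 0.77, 0.09, 0.04, 0.71, 0.41 and 0.03 in the same order. Members called were 0 higher at a mean filter of 5 TPM, which did not test *Igfbp2*, and 2 lower with 1 factor from residuals. The pathway lists' 17 higher and 3 lower genes became 1 lower with no filter, 5 lower with quantile normalization, 7 lower with 1 factor, 4 and 0 without both null libraries, and 8 and 1 with the fibroblast term. Leaving out 1 library gave 9 to 15 higher, the fewest without *Mir140*-null replicate 2, and 1 to 3 lower, 1 remaining without wild-type replicate 1, 3 or 4 or *Mir140*-null replicate 2 or 4. Over all genes, the 1797 higher and 1100 lower became 977 and 539 with no filter, 605 lower at a mean of 5 TPM, 2016 lower with 1 factor, 386 and 234 without both null libraries, 776 and 350 with the fibroblast term, and 755 to 1551 higher and 337 to 1251 lower leaving out 1 library. Higher genes were 62.0% of all calls, 50.9% after median-ratio scaling (1368 higher, 1320 lower) and 73.1% at a mean of 5 TPM. The causes of these shifts were not tested. Some of the alternatives also held fewer genes or libraries.

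The deviations of same-numbered libraries from their genotype means showed little correlation over the tested genes (0.0308, 0.016, 0.0688 and -0.00911). The split among the null libraries also enters these correlations, so they cannot show whether the replicate numbers mark litters or batches. With the replicate block, 671 genes were higher and 454 lower, of the pathway lists 8 and 0, and *Igfbp2* was still called. The number of reads behind levels near 1 TPM, as of *Igfbp2* and *Pappa* in wild-type libraries, was not computed.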
